A study of Mus musculus with 2 samples.

Results

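The cells described here are epithelial cells of RSPO1-Fc-treated mouse adenoma organoids that carried the highest summed level of 6 genes, Nupr1, Apob, F3, Mal, Serpinb9b and Prss22. Of 5036 barcodes over the cell limits of both libraries, 2767 belonged to the RSPO1-Fc library, with at least 5960 unique molecular identifiers (UMIs, 1 per captured RNA molecule). At most 20% mitochondrial UMIs and at least 5 UMIs of the epithelial adhesion gene Epcam left 2729 epithelial cells. The top 7% of these by summed UMIs of the 6 genes over total UMIs gave 191 members and left 2538 other epithelial cells. The score itself chose the members, so every difference between members and other cells of this library is a description, with no test.

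The RSPO1-Fc library came from intestinal adenoma organoids of ApcMin/+ mice on the C57BL/6 background, aged 17 weeks, cultured with RSPO1-Fc fusion protein. The control library came from organoids of the same genotype, strain and age without the protein. The treatment protocol gives 10 μg/ml of RSPO1-Fc, whereas the sample's description gives 10 mg/ml, and the dose is therefore uncertain. Each condition is 1 library, the number of animals behind a culture is not given in the sources used here, and the libraries shared 0 barcodes. ApcMin carries a truncating mutation of Apc, a negative regulator of Wnt signalling, and adenomas form in these mice with high Wnt activity. The labels name one chemistry version for both libraries, but the barcode list of the control has the length used by a later version, and the 2 gene tables differ. Chemistry and RSPO1-Fc cannot be told apart, and values across libraries are given as values only.

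R-spondins bind Lgr receptors and stop the ubiquitin ligases Rnf43 and Znrf3 from removing Wnt receptors, which prolongs Wnt signalling in crypt cells. Injured intestinal epithelium and many Apc-mutant tumours contain cells in a fetal-like or regenerative state, marked by Clu, Anxa1 and Ly6a and tied to the coactivator YAP. Among the 6 genes, Nupr1 encodes a stress-induced chromatin protein, Apob the structural protein of chylomicrons and low-density lipoprotein, and F3 tissue factor, the receptor that starts coagulation and a known YAP target. Mal encodes a raft protein of apical transport, Serpinb9b an intracellular serpin of the granzyme inhibitor family, and Prss22 a tryptase-like serine protease.

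The promoters of the 3 genes that supplied most of the score are shown here, 250 bases before to 50 bases after the start in RefSeq (GRCm38.p6), on the strand of each gene. Capitals mark matches to short motifs, searched on both strands, that were chosen with the sequences in view. The Nupr1 window lies at chr7:126625421-126625720 on the minus strand, that of Apob at chr12:7977427-7977726 on the plus strand and that of F3 at chr3:121723287-121723586 on the plus strand. Distances below are from the RefSeq start. The gene spans given later are from GENCODE and begin further upstream for Nupr1 and Apob, so the Nupr1 window lies inside its span.
Nupr1: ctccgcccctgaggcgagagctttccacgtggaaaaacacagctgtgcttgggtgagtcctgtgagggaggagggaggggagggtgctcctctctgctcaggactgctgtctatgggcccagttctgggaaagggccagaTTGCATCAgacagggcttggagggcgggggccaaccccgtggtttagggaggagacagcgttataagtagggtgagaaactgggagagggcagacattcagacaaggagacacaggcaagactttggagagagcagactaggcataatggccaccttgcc
Apob: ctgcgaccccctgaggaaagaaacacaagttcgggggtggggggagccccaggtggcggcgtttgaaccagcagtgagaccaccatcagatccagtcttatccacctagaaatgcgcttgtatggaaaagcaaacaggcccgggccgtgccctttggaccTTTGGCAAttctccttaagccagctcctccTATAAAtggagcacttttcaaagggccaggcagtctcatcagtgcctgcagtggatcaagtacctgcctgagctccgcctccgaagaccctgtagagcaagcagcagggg
F3: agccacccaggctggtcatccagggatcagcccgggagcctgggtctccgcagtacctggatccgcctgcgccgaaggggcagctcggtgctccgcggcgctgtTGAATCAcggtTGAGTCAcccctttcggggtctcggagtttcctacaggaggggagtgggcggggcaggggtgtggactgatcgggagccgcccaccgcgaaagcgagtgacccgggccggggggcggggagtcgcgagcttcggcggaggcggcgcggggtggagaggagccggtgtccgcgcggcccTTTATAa
The Nupr1 window held 1 match to the ATF4-type composite element TGATGNAA, TTGCATCA on the minus strand, 110 bases before the start. This motif was found in 3.97% of 32851 promoters of the same length. Apob had a C/EBP-type TTGCNNAA, TTTGGCAA on the minus strand, 90 bases before the start, and a TATAAA box 60 bases before it, with 10.8% and 13.6% of promoters holding these motifs. The HNF4-type TGNACTTTG, present in 1.41% of promoters, did not match the Apob window. Only this string was searched for HNF4, so the lack of a match does not show that the window has no HNF4-type element. F3 had a pair of AP-1 elements, TGAATCA at 146 and TGAGTCA at 135 bases before the start (TGANTCA, 7.81% of promoters), and a TATAAA box in reverse orientation 44 bases after it. A TEAD-type GGAATG, present in 14.7% of promoters, matched the Mal window and none of the 3 windows shown. A match of letters is no evidence of binding.

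Nupr1 supplied 44.9% of the 6-gene UMIs of the members, Apob 22.9% and F3 16.7%, so Nupr1 weighed more in the choice than the Apob and F3 of the working name. Mal gave 7.78%, Serpinb9b 5.29% and Prss22 2.52%. Nupr1 was the leading gene of 104 members, Apob of 45, F3 of 30, Mal of 3 and Serpinb9b of 1, with 8 ties. At the boundary, the last member carried 26 of these UMIs among 25418 (1023 CPM, counts per 1000000 UMIs) and the first cell left out 46 among 45587 (1009 CPM), so the threshold cut a continuous range. The score ranged over members with a lowest value of 1023, a median of 1680 and a highest of 9085 CPM, against 0, 112 and 1009 CPM in the other epithelial cells.

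Nupr1 (chromosome 7, 126623249 to 126630861, minus strand, GRCm38) reached 756 CPM in the median member and 5327 CPM in the highest, with a lowest of 0. In other cells its median was 39.8 CPM and its highest 877 CPM. Apob (chromosome 12, 7977648 to 8016835, plus strand) had a lowest of 0, a median of 337 and a highest of 3730 CPM in members, against 0, 24.8 and 754 CPM in other cells. F3 (chromosome 3, 121723537 to 121735048, plus strand) had 0, 193 and 2753 CPM in members, against 0, 0 and 627 CPM in other cells. The ranges of single cells overlapped for all 3 genes, because a cell could qualify through any of them.

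Mal (chromosome 2, 127633226 to 127656695, minus strand) had 0, 132 and 851 CPM in members, against 0, 0 and 532 CPM in other cells. The median member held no UMI of Serpinb9b (chromosome 13, 33027416 to 33041884, plus strand) or of Prss22 (chromosome 17, 23993534 to 23998100, minus strand). Their highest members had 1507 CPM of Serpinb9b and 595 CPM of Prss22, against 267 and 322 CPM in the highest other cells. Serpinb9b has close copies in the same gene cluster, and how the authors' counting split reads among them is not known here. At least 1 UMI of Apob was found in 164 of 191 members and of F3 in 152, so neither gene was seen in every member.

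At least 4 of the 6 genes were detected in 143 members (74.9%) and in 351 other cells (13.8%), and all 6 in 28 members and 18 other cells. Across all 2729 cells the 15 pairs of genes correlated with Pearson's r between 0.27 and 0.44 on log levels, which share each cell's depth. Within the 191 members r ran between -0.40 (F3 with Nupr1) and 0.33 (Apob with Serpinb9b, and F3 with Prss22), and 4 of 15 pairs were negative. All 4 negative pairs contained Nupr1. Since a fixed sum over a threshold favours cells rich in either partner, the values within members describe the selection too.

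To measure the genes on molecules that had not chosen the cells, each UMI was placed at random in 1 of 2 equal sets, and members chosen on one set were measured on the other. Summed over cells, Apob was then at 476 CPM in members and 45.5 CPM in others, a 10.5-fold difference with a 95% interval of 9.65 to 11.4. The folds of the other genes were 10.4 for F3, 18.1 for Serpinb9b, 8.41 for Prss22, 7.87 for Mal and 13.6 for Nupr1. When each gene was measured in cells chosen by the other 5, the folds were 7.91 (7.45 to 8.39) for Apob, 7.43 (6.92 to 7.98) for F3, 17.7 (15.4 to 20.4) for Serpinb9b, 7.83 (6.58 to 9.28) for Prss22, 7.16 (6.50 to 7.88) for Mal and 7.69 (7.33 to 8.05) for Nupr1. Each gene was thus higher also in cells chosen by the other 5. The 6 genes were set with earlier results of these data known, so these folds are a description and no independent support. In the split of UMIs each gene still helped to choose the cells. Intervals here and below cover counting error only, since cells of 1 library are not replicates.

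**Figure D1:**
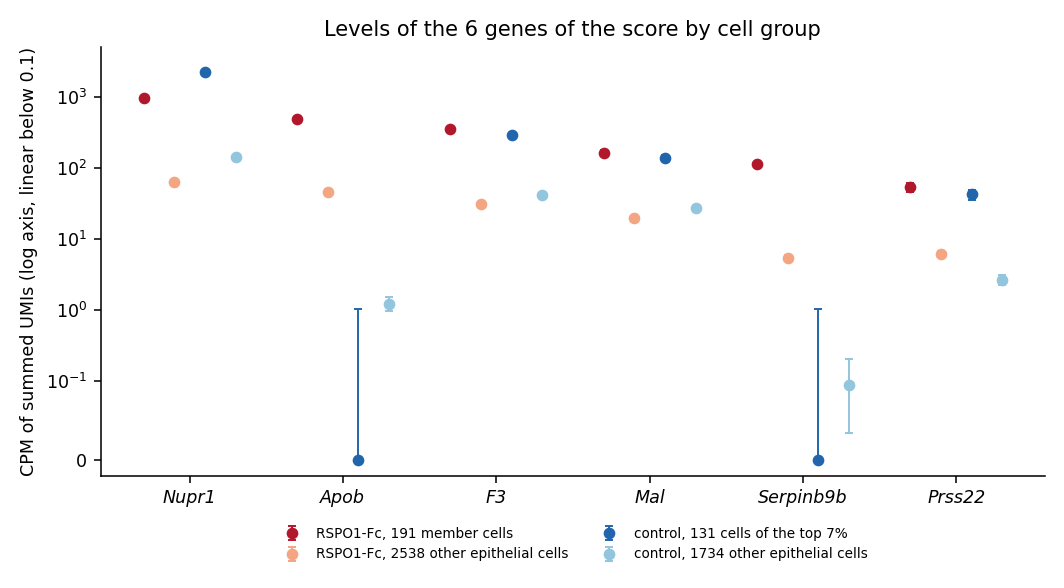
Level of each gene of the score as CPM of UMIs summed over a cell group, on a log axis that is linear below 0.1, with exact 95% Poisson intervals. Nupr1 reached 953 CPM in the members and 2218 CPM in the control's top 7%, while Apob and Serpinb9b had 486 and 112 CPM in the members and no UMI in the control's top 7%.

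The members were a little shallower than the rest, with a median of 20716 UMIs and 4575 genes, against 23830.5 UMIs and 4797.5 genes in other cells. None of 191 members was among the 60 highest doublet scores, which allows a share of up to 1.91% (exact 95% limit), against 60 of 2538 other cells. The median mitochondrial share was 3.72% in members and 3.37% in other cells, but 24 members (12.6%, Clopper-Pearson interval 8.22 to 18.1%) were over 10%, against 51 other cells (2.01%, 1.50 to 2.63%). Those 24 members had a median of 8584.5 UMIs, with 1045 CPM of Apob, 6953 CPM of Clu and 1302 CPM of Fn1, against 452, 3698 and 859 CPM in the remaining members. Nupr1 went the other way, at 668 CPM in the 24 and 971 CPM in the remaining members. For Apob, Clu and Fn1, other cells over 10% differed from the remaining other cells in the same direction, with 117, 1715 and 280 CPM against 45.7, 754 and 94.7 CPM. Nupr1 was instead higher in other cells over 10%, at 87.85 CPM against 64.0 CPM in the remaining ones. Mal also differed in direction, at 103 and 169 CPM in members and 31.4 and 19.7 CPM in other cells. Mki67 was at 77.1 CPM in the 24 members and 26.1 CPM in the remaining members, and at 165 and 90.9 CPM in other cells. The nuclear RNA Malat1 was at 25639 CPM in the 24 members and 12507 CPM in the remaining members. The part of cell damage or depth in these levels was not tested. Without cells over 10%, the gene counts below were 443 higher and 263 lower.

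RNA in barcodes of over 100 and up to 500 UMIs, taken as free RNA, held 266 CPM of Nupr1, 79.7 CPM of Apob and 74.7 CPM of F3. These values lie above the 64.1, 46.2 and 31.7 CPM of the other epithelial cells and below the 953, 486 and 353 CPM of the members. A UMI of these genes in an other cell is therefore not read as expression. Of 474 genes at least 2-fold higher in members and outside the score, 350 (73.8%) had more free RNA than their level in other cells, against 38.3% of all 6203 measured genes and 13.7% of the 271 lower ones. Subtracting free RNA as 25% of UMIs gave 724 genes higher and 572 lower. A free RNA level at or above that of the members was found for 4 of the 474. One of them was Igfbp7, at 52.4 CPM in members, 3.26 CPM in other cells and 70.2 CPM in free RNA.

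Among 6203 genes with at least 20 CPM in either cell group, 480 (7.74%) were at least 2-fold higher in members and 271 (4.37%) at least 2-fold lower, on log2 of CPM with 1 CPM added. The median over all 6203 was 0.05. These shares come from the contrast that chose the members and serve as the background for the counts of each list. The highest list medians were those of fetal and regenerative genes, YAP targets, coagulation and protease inhibitor genes and surface genes, and the lowest those of stem cell and cell cycle genes.

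Of 12 measured fetal and regenerative genes, 11 were higher and 0 lower, with a median log2 ratio of 1.80. Clu, a secreted chaperone and the marker of revival stem cells, was found in all 191 members, with a lowest of 120, a median of 3143 and a highest of 20249 CPM. Its summed level was 3885 CPM in members and 761 CPM in other cells, 5.11-fold (5.02 to 5.20). Anxa1, an annexin of membrane repair and inflammation control, was also found in every member, at 1179 CPM against 256 CPM in other cells. Cd44, a hyaluronan receptor, was at 285 CPM in members and 73.3 CPM in other cells, and Basp1, a membrane-linked signalling protein, at 245 and 32.4 CPM. Ly6a, the surface protein Sca-1, was at 227 CPM in members and 60.0 CPM in other cells.

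The overlap of cells was partial. Of the 191 members, 95 (49.7%) were also in the top 7% of cells by Clu and 89 (46.6%) in the top 7% by the fetal and regenerative list. The top 7% by YAP targets without F3 held 54 members (28.3%). Below the 7% of an even spread were the overlaps with the top 7% by Lypd8 and Dmbt1 (5 members), by Reg1 and Lor (5), by the G2 and M phase list (3) and by the S phase list (0, which allows up to 1.91%). Across all 2729 cells, the genes outside the score whose level correlated most with it were Clu (r = 0.63), Krt8, Cxcl16 and Anxa1 (0.62 each) and Krt19 (0.61). Cxcl16, a membrane-bound chemokine, was found in all 191 members, at 424 CPM against 110 CPM in other cells.

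Of 25 measured surface and late differentiation genes, 14 were higher and 1 lower (median log2 ratio 1.10). The simple-epithelium keratins were the most abundant, with Krt8 at 6247 CPM in members and 2458 CPM in other cells, Krt19 at 5522 and 2065 CPM, Krt18 at 5116 and 1740 CPM and Krt7 at 2240 and 856 CPM. Sprr1a, a cornified envelope protein induced in injured gut, was at 418 CPM in members and 68.1 CPM in other cells. Krt20, a marker of differentiated surface cells, was 2.03-fold higher (1.85 to 2.22), at 129 and 63.7 CPM. The mucin Muc13 was the lower member of the list, at 45.8 CPM in members and 134 CPM in other cells. The squamous and cornified envelope list had 4 measured genes, of which Sprr1a and Krt14 (37.7 CPM in members and 7.55 CPM in other cells) were higher. The remaining pair lay below 0 within 2-fold, Krt4 at 20.7 CPM in members and 41.9 CPM in other cells and Lor at 154 and 228 CPM. The squamous genes Krt5 and Trp63 had no UMI in members, where 3 UMIs would be 0.738 CPM. Of 23 enterocyte absorption genes only 3 passed 20 CPM, with 0 higher and 2 lower, and Sis, Lct and Slc2a2 were at 0 in members. This list summed to 76.5 CPM in members and 118.7 CPM in other cells.

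The coagulation, plasminogen activation and protease inhibitor list had 7 of 12 measured genes higher and 0 lower (median 1.18). The coagulation part of the list's name fits few of them, since 5 of the 7 were intracellular serpins of clade B. Serpinb9, the mouse granzyme B inhibitor, was at 57.1 CPM in members and 5.79 CPM in other cells, 9.87-fold (8.35 to 11.7). Serpinb6b was at 98.0 and 12.3 CPM, Serpinb1a, an elastase inhibitor, at 717 and 250 CPM and Serpinb5, known as maspin, at 73.6 and 19.0 CPM. Serpinb6b and Serpinb9 belong to the same family of close copies as Serpinb9b, so their counts share its uncertainty. F2rl1, the protease-activated receptor PAR2, was at 142 CPM in members and 56.2 CPM in other cells, and Anxa2, a plasminogen-binding annexin, at 1412 and 460 CPM. Beside F3 itself, the clotting genes were scarce, with F10 and Thbd at 0 and F5 at 2.22 CPM in members, and the tissue factor inhibitor Tfpi at 0.738 CPM.

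Apob stood almost alone among lipoprotein genes. Of 9 measured genes of lipoprotein assembly and lipid droplets, 1 was higher and 0 lower (median 0.10). That gene was Plin2, the coat protein of lipid droplets, found in 180 members, with 245 CPM in members and 52.7 CPM in other cells. Mttp, the transfer protein that loads lipid onto Apob, was at 2.71 CPM in members and 5.38 CPM in other cells. Apoa1, Apoa4 and Apoc3, other apolipoproteins of enterocytes, had no UMI in members. The hepatocyte markers Alb, Fgb and Cps1 were also at 0, and the 6 hepatocyte markers summed to 2.95 CPM in members and 2.66 CPM in other cells. Apobec1, the editing enzyme of the Apob transcript, was at 13.8 CPM in members and 5.65 CPM in other cells, under the 20 CPM limit.

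Of 12 measured YAP targets, 7 were higher and 1 lower (median log2 ratio 1.20), with F3 left out of the count. Ctgf, a matricellular protein, was at 42.3 CPM in members and 4.35 CPM in other cells, 9.73-fold (8.01 to 11.8), and Ankrd1, a cofactor with ankyrin repeats, at 57.1 and 9.31 CPM. Both were uneven, found in 52 and 47 members, and the 10 highest members held 55.8% of the Ctgf and 72.8% of the Ankrd1 UMIs. Amotl2 and Ajuba, which act in the Hippo pathway, were at 42.1 and 115 CPM in members, against 15.9 and 45.8 CPM in other cells. Birc5, a mitotic gene that sits on this list, was the lower one, at 61.3 CPM in members and 160 CPM in other cells. Fn1, fibronectin, was outside the list but among the highest ratios, with 885 CPM in members and 96.0 CPM in other cells, and was found in 173 of 191 members.

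Stress lists split. Of 18 measured p53 targets and Cdk inhibitors, 5 were higher and 0 lower (median log2 ratio 0.74). The 5 were Cdkn2b (p15, 175 CPM in members and 40.7 CPM in other cells), Gadd45a (221 and 61.3 CPM), Cdkn2a (92.8 and 26.6 CPM), Pmaip1 (270 and 118 CPM) and Trp53inp1 (59.8 and 26.2 CPM). Cdkn1a, encoding p21, was at 411 CPM in members and 236 CPM in other cells, under 2-fold. Nupr1 is a known target of the ATF4 branch, and the part of that branch in the Nupr1 level was not tested. The integrated stress response list had 1 of 18 genes higher (Ppp1r15a, 94.8 CPM in members and 44.1 CPM in other cells) and 3 lower (median -0.04). Atf4 itself was at 166 CPM in members and 170 CPM in other cells, and Ddit3 at 23.6 and 15.5 CPM. The lower ones were Phgdh, Psat1 and Shmt2 of serine and glycine synthesis, with Phgdh at 71.4 CPM in members and 155 CPM in other cells. None of 15 unfolded protein response genes passed 2-fold in either direction (median 0.34), with Hspa5, the main chaperone of the endoplasmic reticulum, at 477 and 303 CPM.

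Of 14 measured NF-kB targets and chemokines, 5 were higher and 1 lower (median log2 ratio 0.51). Ccl2, a monocyte attractant, was at 83.9 CPM in members and 5.68 CPM in other cells, and 72.4% of its UMIs came from 10 members. Of 6 measured MHC class I genes, 3 were higher and 0 lower (median log2 ratio 0.83), among them B2m at 313 CPM in members and 149 CPM in other cells. Tapbp, at 131 and 53.3 CPM, overlaps Zbtb22 on the same strand and is uncertain. Immune cell markers were scarce apart from Cd14, at 43.6 CPM in members. The 6 T cell markers had 0 UMIs in members, where 3 UMIs would be 0.738 CPM, and 0.0453 CPM in other cells. Of the 8 macrophage markers, Adgre1, C1qa, C1qb, Lyz2 and Tyrobp were at 0 in members, and the sum was 50.7 CPM in members and 21.7 CPM in other cells, most of it Cd14. The 6 fibroblast markers summed to 0.985 CPM in members and 0.967 CPM in other cells, and 6 endothelial markers to 23.1 and 32.8 CPM. The 6 smooth muscle and pericyte markers summed to 24.4 CPM in members and 10.0 CPM in other cells, nearly all of it Acta2, a contractile actin, at 24.1 and 9.74 CPM. Myh11, Tagln, Pdgfrb and Des were at 0 in members.

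All 42 measured G2 and M phase genes lay below 0, 31 of them at least 2-fold lower, with a median of -1.31. All 30 S phase genes also lay below 0, with 16 lower and a median of -1.07. Mki67, the proliferation antigen, was at 29.0 CPM in members and 91.4 CPM in other cells, 3.15-fold lower (2.62 to 3.81). Hist1h2ap, a replication-dependent histone, was at 67.7 CPM in members and 452 CPM in other cells, and Aurkb, a mitotic kinase, at 6.65 and 33.2 CPM. Free RNA held 48.8 CPM of Mki67, above its level in members.

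Of 5 measured stem cell markers, 4 were lower and 0 higher, with a median of -1.52. Ascl2, a transcription factor of crypt stem cells, was at 7.38 CPM in members and 38.5 CPM in other cells, 5.21-fold lower (3.64 to 7.74). Lgr5, an R-spondin receptor, was scarce in both, at 5.66 CPM in members and 13.0 CPM in other cells. Among 14 Wnt targets, 2 were higher and 5 lower (median log2 ratio -0.58). Axin2 was at 51.2 CPM in members and 104 CPM in other cells, Nkd1 at 26.1 and 98.1 CPM and Notum, a secreted Wnt deacylase, at 17.0 and 49.5 CPM. Cd44, given above with the fetal genes and also known as a Wnt target, was higher, with a log2 ratio of 1.94. Wnt7a encodes a Wnt ligand and is named for its ratio, which was among the highest of all measured genes. Wnt7a was at 38.6 CPM in members and 3.20 CPM in other cells, and was found in 79 members. The hypoxia and glycolysis list had 0 of 23 higher and 4 lower (median -0.40), and the cholesterol synthesis list 0 of 24 higher and 1 lower (median -0.14).

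Some of the largest ratios belonged to single cells. Ccl5, a T cell attractant, had the highest ratio of all named genes, with 146 CPM in members and 3.11 CPM in other cells, but 584 of its 593 UMIs (98.5%) were in 1 member. Without that cell the level was 2.23 CPM in members. Pyy, a gut hormone, was at 353 CPM in members and 43.0 CPM in other cells, with 79.8% in 10 members. By contrast, the highest member held 3.06% of the Fn1, 3.49% of the Prkcdbp (cavin 3) and 4.00% of the Msn (moesin) UMIs, and these were found in 173, 140 and 83 members.

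**Figure D2:**
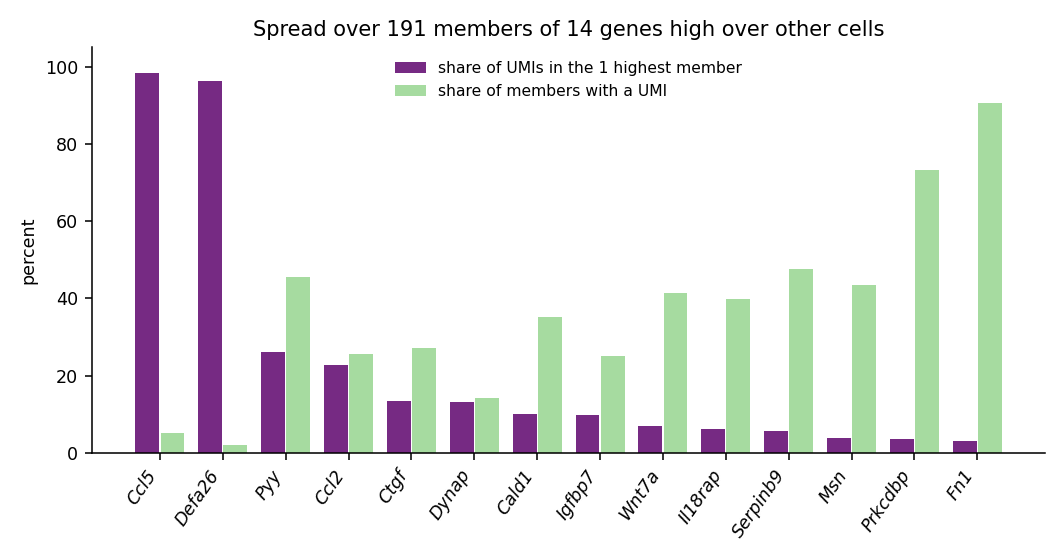
Percent of all member UMIs held by the 1 highest member cell, and percent of the 191 members with at least 1 UMI, for 14 of the 15 genes with the highest ratio of members over other cells. Ccl5 and Defa26 come almost entirely from 1 cell each, whereas Fn1 and Prkcdbp are spread over most members.

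One member held 6946 UMIs of the 7 Paneth cell markers among its 37280 UMIs, which is 18.6% of the cell and 76.9% of all Paneth marker UMIs in members. The next member had 0.998%, and the median member 0.0338%. Of the 44 score UMIs of that cell, 41 were Nupr1. The Paneth list had 3 of 7 genes higher and a median of 0.78, and a median of -0.74 without that cell. Defa24, an antimicrobial peptide of Paneth cells and one of a family of near-identical copies, was at 1399 CPM in members and 254 CPM in other cells, and at 150 CPM in members without its highest cell. The median Paneth marker level per cell was close, at 338 CPM in members and 342 CPM in other cells. On UMIs summed per gene, the list median of -0.74 without that cell lay on the lower side in members. The top 7% of cells by these markers included 14 of 191 members (7.33%), near the 7% of an even spread. Leaving out that cell gave 474 genes higher and 279 lower, 463 and 270 of them shared with the counts above.

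The 45 Apob-led, 30 F3-led and 104 Nupr1-led members shared the main lists, with fetal and regenerative medians of 1.94, 1.82 and 1.56 and G2 and M phase medians of -1.20, -1.11 and -1.57, each against the 2538 other epithelial cells. They differed in others, as a description of groups that the score genes defined. The unfolded protein response median was 0.78 in Apob-led, 0.51 in F3-led and 0.03 in Nupr1-led members, with Hspa5 at 849, 568 and 323 CPM. The YAP target median was 1.48, 1.17 and 0.80, with Ankrd1 at 132, 64.6 and 16.8 CPM and Ctgf at 88.4, 69.2 and 16.4 CPM. Ly6d, a surface protein of squamous epithelium, was highest in Nupr1-led members, at 296 CPM against 111 CPM in Apob-led and 50.8 CPM in F3-led members. It was found in 69, 25 and 9 of these members. The Paneth median was -1.90, -1.15 and 1.50, the last with the single cell described above.

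**Figure D3:**
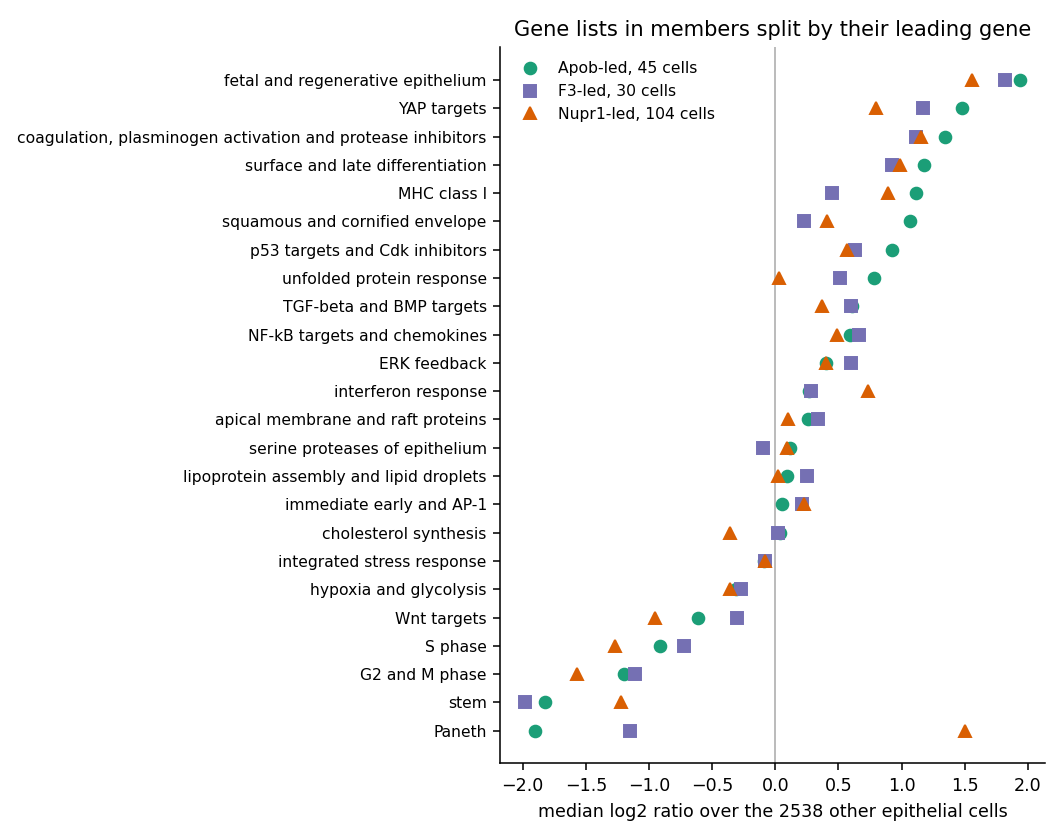
Median log2 ratio of each gene list over the 2538 other epithelial cells, for members led by Apob (45 cells), F3 (30 cells) or Nupr1 (104 cells). Unfolded protein response and YAP target medians fall in that order, and the Paneth median is above 0 only in the Nupr1-led members.

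In principal components computed without the 6 genes, members lay partly together. On average 53.9% of the 20 nearest neighbours of a member were members, against 2.42% for other cells and 7% for an even spread. At least 10 of the 20 neighbours were members for 110 of 191 members, and 10 members had none. For the top 7% of control cells by the same score, described below, the mean share of such neighbours was 25.6%. At least 10 of 20 neighbours were from that top 7% for 9 of its 131 cells.

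The control library, which had no part in choosing the members, was scored in the same way. Its limit of at least 9810 UMIs and the same filters left 1865 epithelial cells, of which 131 formed the top 7%. Over all epithelial cells of each library, Apob was at 71.6 CPM with RSPO1-Fc and 1.15 CPM in control, and Serpinb9b at 11.6 and 0.0899 CPM, with 6 UMIs behind the control value. F3 was at 50.3 and 55.2 CPM, Mal at 28.2 and 33.4 CPM, Prss22 at 8.85 and 4.79 CPM and Nupr1 at 116 and 254 CPM. Free RNA of the control held 0.979 CPM of Apob, and that of RSPO1-Fc 79.7 CPM. The 6 genes summed to 286 CPM with RSPO1-Fc and 349 CPM in control.

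In the control's top 7%, Nupr1 supplied 82.4% of the score, F3 10.8%, Mal 5.20% and Prss22 1.58%, while Apob and Serpinb9b had 0 UMIs, where 3 UMIs would be 0.834 CPM. At the RSPO1-Fc threshold of 1023 CPM, 226 of 1865 control cells (12.1%, 10.7 to 13.7%) would have qualified, and 65 (3.49%, 2.70 to 4.42%) on the 5 genes without Nupr1 at the matching threshold of 585 CPM. In control cells chosen by the other 5 genes, Prss22 was 7.89-fold higher (6.15 to 10.1), Nupr1 2.88-fold (2.76 to 3.0) and F3 2.76-fold (2.50 to 3.04), whereas Mal was 0.620-fold (0.483 to 0.784). Apob and Serpinb9b had 0 UMIs in these cells. With Mal left out the score was mostly Nupr1. Measured on the UMIs that had not chosen the cells, with all 6 genes in the score, Mal was 4.54-fold higher (3.90 to 5.26) and F3 7.01-fold (6.33 to 7.77) in the control's top 7%. Mal and F3 themselves helped to choose those cells, so these 2 folds cannot show whether either gene follows the others.

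Summed UMIs of secretory markers were also higher in the control's top 7%, in few cells. All 7 Paneth markers were at least 2-fold higher in it than in other control cells, with a median of 4.57, and all 5 measured goblet markers, with a median of 4.12. Spink4, a goblet peptide, was at 2822 CPM in the top 7% and 111 CPM in other control cells. Yet 10 of the 131 cells held 92.5% of the Paneth and 99.1% of the goblet marker UMIs of the top 7%. A goblet marker UMI was found in 52.7% of the top 7% and 68.2% of other control cells, and a Paneth marker UMI in 93.1% and 93.3%. Paneth markers made up over 1% of UMIs in 6 of the 131 cells and 6 of 1734 other control cells. In the RSPO1-Fc members, 0 of 3 measured goblet markers were higher. The part of these cells in the comparison below was not tested.

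Of the 474 genes higher in members and outside the score, 372 were measured in control, and 117 of these (31.5%) were at least 2-fold higher in the control's top 7%, with 3 lower. The background was 4.3% of 6903 genes higher and 2.58% lower in control. Of the 271 genes lower in members, 180 were measured in control, and 80 (44.4%) were at least 2-fold lower there, with 4 higher. The control medians were 0.76 for the higher genes and -0.86 for the lower ones, against 0.04 over all shared genes. With Nupr1 left out of the score in both libraries, 129 of 341 (37.8%) and 50 of 149 (33.6%) went the same way. Both shares are above the background, and most of the genes did not pass 2-fold in control.

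**Figure D4:**
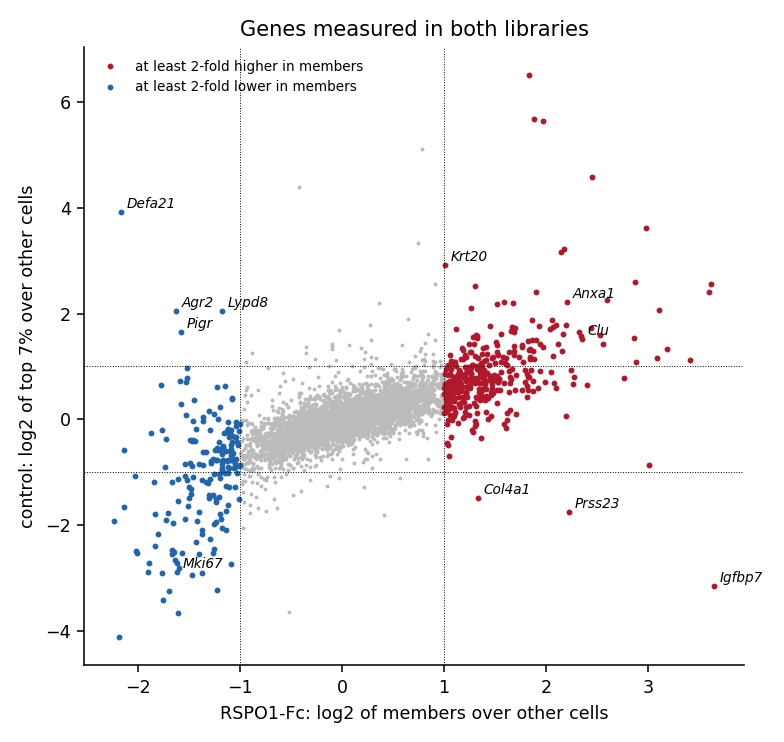
Log2 ratio of members over other cells in the RSPO1-Fc library (x axis) and of the top 7% over other cells in the control library (y axis), 1 point per gene measured in both and outside the score, with dotted lines at 2-fold. Most genes that were higher in members lie above 0 in control, while Igfbp7, Prss23 and Col4a1 lie below the lower line.

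In the control's top 7%, 9 of 14 measured fetal and regenerative genes (median 1.19), 16 of 28 surface and late differentiation genes (1.24), 7 of 13 coagulation and inhibitor genes (1.01) and 9 of 19 NF-kB targets and chemokines (1.00) were higher, with 0 lower. MHC class I had 1 of 8 higher and 0 lower (median 0.86), and YAP targets 2 of 10 higher and 1 lower (median 0.56). G2 and M phase genes (-2.07) and S phase genes (-1.50) were low in both. Clu was at 1310 CPM in the control's top 7% and 458 CPM in other control cells, Anxa1 at 659 and 142 CPM and Cdkn2b at 96.7 and 28.3 CPM. The stem marker median was -0.21 over 7 measured genes in control and -1.52 over 5 measured genes in members. These medians cover different genes, since Lgr5 passed the limit for measured genes in control only. The part of this in the gap between the medians was not tested. Lgr5 was at 94.5 CPM in the control's top 7% and 84.1 CPM in other control cells. Serpinb9, at 4.72 and 1.89 CPM, and Serpinb6b, at 1.67 and 0.808 CPM, were scarce in the control library.

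**Figure D5:**
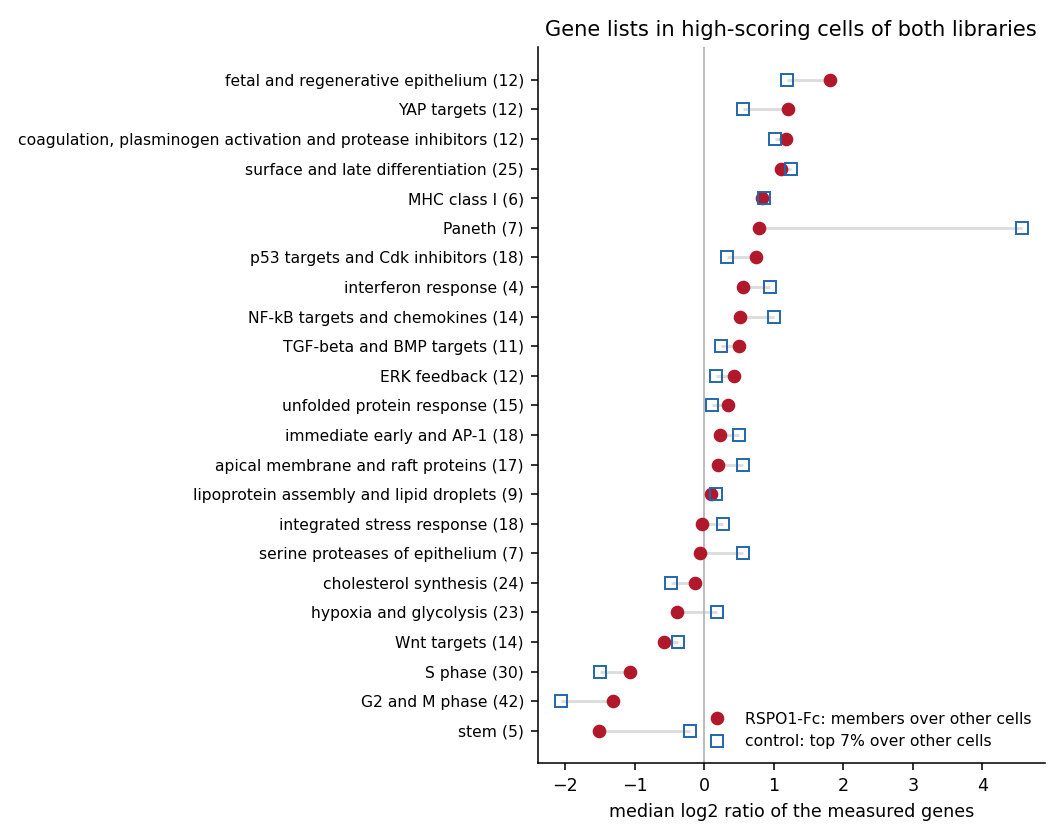
Median log2 ratio of the measured genes of each list (number measured in the RSPO1-Fc library in brackets), as filled points for RSPO1-Fc members over other cells and open squares for the control's top 7% over other control cells. Fetal, coagulation and surface lists lie to the right and cell cycle lists to the left in both, whereas the Paneth median is 0.78 in members and 4.57 in control.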

How the data were processed

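Organoids of 2 cultures were each measured as 1 library of 10x Chromium 3′ single-cell RNA sequencing. Per the labels' protocols, cells received 131291 (RSPO1-Fc) and 58414 (control) reads on average, aligned to mm10. Software listed in the submitters' processing notes was Seurat 3.1.1 with Cell Ranger 2.1.1, but the control matrix gives version 3.1.0, per the file headers. For each barcode the authors deposited unnormalized UMI counts of every gene, with empty droplets still present. They sum to 89437327 UMIs (RSPO1-Fc, 27998 genes) and 91675581 UMIs (control, 31053 genes). Genes were matched on 27514 shared identifiers.

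Cells had at least 5960 (RSPO1-Fc) or 9810 UMIs (control), at most 20% mitochondrial UMIs, which removed 22 and 18 barcodes, and at least 5 Epcam UMIs, which left out a further 16 and 386. Doublet scores (scrublet, scanpy 1.11.5) removed no cell except in an alternative. UMIs were summed per cell group, scaled to CPM and compared as log2 of the ratio with 1 CPM added to each, which understates the ratio of low genes. Folds were taken on plain CPM. Measured means at least 20 CPM in either group, and higher or lower means a 2-fold difference on the log2 scale. Intervals are 95% exact Poisson for sums, conditional Clopper-Pearson for folds and Clopper-Pearson for shares. They cover counting error only. No p-value was computed, since each group is 1 library. On simulated counts with known fold changes, the ratio and counting steps were tested before use.

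The members, the 23 pathway lists, the 14 cell type lists and the choice of named genes were drawn up with earlier results of these data known. Named genes were the 6 of the score, the 15 highest and 10 lowest ratios, up to 4 per list, 7 standard markers and the 5 that correlate most with the score. Of these, 1 of the highest and 1 of the lowest are not reported here. Other genes in the text were chosen after their values were seen. Free RNA was taken from barcodes of over 100 and up to 500 UMIs. Coordinates are from GENCODE M21 (GRCm38). Alternatives covered cell filters, score, scaling, thinning to 5000 UMIs, free RNA and single cells.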

Additional observations from a re-analysis of the deposited data

Results flagged for a closer look

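A set of 7 genes were at least 2-fold apart in both libraries but in opposite directions, as log2 ratios of RSPO1-Fc members over other cells and of the control's top 7% over other control cells. The difference was not tested, since each group is 1 library. Of the genes higher in members, 3 of 372 measured in control (0.806%) were lower there, against 2.57% of 6882 shared genes. Of the genes lower in members, 4 of 180 (2.22%) were higher in control, against 4.26% of the shared genes. Igfbp7, a secreted growth factor binding protein, was at 3.65 in RSPO1-Fc and -3.15 in control. Prss23, a serine protease, was at 2.23 and -1.75, and Col4a1, a basement membrane collagen, at 1.33 and -1.48. Pigr, the receptor that carries IgA across epithelium, was at -1.58 and 1.65. Agr2, a disulfide isomerase of goblet cells, was at -1.63 and 2.05, Lypd8, a surface protein of colonic enterocytes, at -1.18 and 2.05, and the defensin Defa21 at -2.17 and 3.93. The levels behind the largest gap were 52.4 CPM of Igfbp7 in members and 3.26 CPM in other RSPO1-Fc cells, against 3.34 CPM in the control's top 7% and 37.5 CPM in other control cells. Igfbp7 was found in 48 of 191 members, and 10 of them held 62.0% of its UMIs. Its free RNA level in the RSPO1-Fc library lay above its level in members. Goblet and Paneth markers were high in a few cells of the control's top 7%, and their part in these differences was not tested.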

How the results depend on the processing

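No paired analysis was possible because each group is 1 library with no replicate. Leaving out replicates was not possible for the same reason. The counts of 480 genes higher and 271 lower in members stayed within 1.5 times under 20 of 24 alternatives. Without a filter on low values they were 858 and 724, and at 5 CPM 713 and 560, since more genes were counted. Free RNA subtracted as 25% of UMIs gave 724 and 572. A fraction estimated from the data, 66.4% (RSPO1-Fc) and 65.8% (control), gave 1797 and 1772, but by construction it sets 5% of abundant genes at or below 0.

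Of the genes higher in members, 117 were also higher in the control's top 7%, and of the lower ones 80 were lower. These counts were 267 and 279 without a filter, 212 and 223 at 5 CPM, 189 and 178 with 25% of free RNA subtracted and 505 and 693 at the estimated fraction. The count of 80 was 52 with cells weighted equally, 37 with cells thinned to 5000 UMIs and 50 with Nupr1 left out of the score, and the cause was not tested.

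Among ratios of named genes over 2-fold, those that turned round were of defensins, Ang4 and Ccl5. On the log2 scale Defa26, Defa24, Ang4 and Defa17 were at 3.40, 2.46, 1.88 and 1.84. They were at -0.76, -1.11, -1.96 and -1.03 in the top 5% of cells and at -0.90, -1.67, -1.83 and -1.0 with Nupr1 left out of the score. Without the member richest in Paneth markers, or without each gene's highest member, they were at -0.37, -0.76, -1.72 and -0.90. Ccl5, at 5.16, was at -0.35 without its highest member. The Paneth list median of 0.78 was -1.03 in the top 5% of cells, -1.67 with Nupr1 left out of the score and -0.74 without the member richest in these markers. Ratios within 2-fold that crossed 0 were those of Lyz1 (0.78, down to -0.38), Tff3 (-0.43, up to 0.30), Tff2, Bst2, Irf1 and Pnpla2, and the integrated stress response and epithelial serine protease medians also crossed it. The fractions of 10% and 25% and the alternatives that leave out single cells were chosen after seeing the data. One library per group, 0 shared cells and a difference in gene tables and barcode lists limit every comparison across libraries, and the dose label is uncertain.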

Other observations

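Other gene groups of the members showed a mixed picture. Of 12 measured genes of ERK feedback, 2 were higher and 0 lower (median 0.42), among them Phlda1, at 761 CPM in members and 300.0 CPM in other cells. Of 4 measured interferon response genes, 1 was higher, Rsad2, an antiviral enzyme, at 21.9 CPM in members and 5.15 CPM in other cells. Several genes of this list lay under the 20 CPM limit with positive values, such as Oasl2 at 17.5 CPM in members and 4.19 CPM in other cells and Ifit3 at 6.40 and 0.710 CPM.

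The apical membrane and raft protein list had 3 of 17 measured genes higher and 2 lower (median 0.20). The lower ones were Lypd8, with a log2 ratio of -1.18, and Myo1a, a brush border myosin, at 11.1 CPM in members and 28.5 CPM in other cells. Among the higher ones, Cav2, a caveolin, was at 42.8 CPM in members and 7.92 CPM in other cells. Mal2, the relative of Mal in transcytosis, was at 325 CPM in members and 113 CPM in other cells, with a UMI in 182 of 191 members. Outside the list, Prkcdbp (cavin 3), a caveolar coat protein, was at 190 CPM in members and 21.2 CPM in other cells. In control, Prkcdbp was at 46.1 CPM in the top 7% and 10.2 CPM in other cells, Mal2 at 156 and 58.6 CPM and Cav2 at 7.50 and 6.65 CPM.

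Of the low genes outside the cell cycle, Cyp2c55, a cytochrome P450 of the gut, had 4 UMIs in members (0.985 CPM) and 20.5 CPM in other cells, a 20.8-fold difference with an interval of 8.10 to 76.4. Myl9, a myosin light chain, was at 24.9 CPM in members and 143 CPM in other cells. Free RNA held 127 CPM of Myl9, above its level in members.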
